A study of Mus musculus with 9 samples.

Results

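The 10 genes described here encode the DNA-binding proteins of the EGR family (Egr1, Egr2 and Egr3) and the components of the transcription factor AP-1, the FOS family (Fos, Fosb, Fosl1 and Fosl2) and the JUN family (Jun, Junb and Jund). They were taken by gene symbol from 9 gene tables of mouse bone marrow cultures, in which they are 10 of 55274 gene identifiers. All 10 were found in each table, and all 10 passed the filter on low values, a minimum of 1 FPKM in 3 or more libraries, which left 13493 genes for testing. FPKM are fragments per kilobase of a gene's transcript and per mapped fragments of the library, in units that make libraries of unequal depth comparable. Fosb passed only through its values in NUP98-NSD1 cells. The set was chosen by its symbols around Egr1, which had been selected on its FPKM, low in NUP98-NSD1+NRASG12D relative to NUP98-NSD1 cells, so the levels of all members in that comparison are given as a description without a test. Fold changes (log2FC) are on the scale of log2(FPKM + 1), with their standard error (SE), and adjusted p-values are from limma.

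Immediate early genes are switched on within minutes of a signal such as a growth factor, without the need for new protein synthesis. RAS proteins signal through the MAP kinases ERK and JNK to factors already bound at these genes, among them serum response factor with its ELK partners, which bind the CArG box, and CREB and ATF proteins. The EGR proteins are zinc finger factors that bind GC-rich sites and are held back by the corepressors NAB1 and NAB2, whose gene Nab2 is itself an EGR target. FOS proteins bind DNA as dimers, mainly with a JUN protein, and the composition of the dimer affects which genes AP-1 activates. In blood cells, EGR and AP-1 factors take part in the differentiation of monocytes and in the activation of mast cells.

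The cultures were grown from bone marrow of young adult female C57BL/6J mice that had received 5-fluorouracil at 150 mg/kg 4 days before harvest, which enriches immature cells. Cells were stimulated for 48 h with human interleukin-6 (10 ng/mL), murine interleukin-3 (6 ng/mL) and murine stem cell factor (20 ng/mL), transduced with retroviral vectors, sorted by the fluorescent protein of the vector and expanded in medium with the same cytokines. The 3 groups of 3 libraries each carried NRASG12D, an activated RAS protein, with blue fluorescent protein, or NUP98-NSD1, a fusion of a nuclear pore protein with a histone methyltransferase found in acute myeloid leukemia, with green fluorescent protein, or both. All groups share the 5-fluorouracil treatment, the cytokines and retroviral expression from the vector's own promoter. No group without an oncogene was analysed here, so each comparison is between oncogenes. Nothing states that libraries of a group came from separate mice, and p-values therefore measure the spread between these libraries, which may be technical.

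The estimated depth was between 23580000 and 37150000 fragments per library. Nras, which checks the labels, had 348 to 479 FPKM in NRASG12D libraries, 47.7 to 51.2 in those with NUP98-NSD1 alone and 245 to 701 in NUP98-NSD1+NRASG12D libraries, the highest value being that of replicate 3. Nup98 had 18.2 to 19.0 FPKM in NUP98-NSD1 libraries, 11.9 to 20.2 in NUP98-NSD1+NRASG12D and 9.12 to 11.1 in NRASG12D libraries, and Nsd1 had 9.98 to 16.2 FPKM over all libraries with overlapping groups. The cultures also differed in cell type markers. The 10 mast cell markers summed to 36190 to 38297 FPKM in NRASG12D libraries, 29111 to 35328 in those with NUP98-NSD1 alone and 784 to 4713 in NUP98-NSD1+NRASG12D libraries, with the highest of the last in replicate 2. Cpa3, a mast cell carboxypeptidase, is listed at 0 in every NRASG12D library, which may be a failed estimate. Without Cpa3 the sums were 36190 to 38297, 15698 to 20949 and 505 to 2892 FPKM. The 11 markers of the neutrophil lineage summed to 29.7 to 36.9, 1728 to 6126 and 8894 to 19862 FPKM in the same order of groups, and Ltf, Camp and Retnlg were listed at 0 in all NRASG12D libraries. The 9 monocyte and macrophage markers summed to 65.7 to 71.1, 511 to 956 and 1822 to 4702 FPKM. Relative to NRASG12D cells, 5 of the 9 mast cell markers other than Cpa3 were lower and 2 higher with NUP98-NSD1, and 8 were lower and 1 higher with both oncogenes, whereas 9 of 11 neutrophil markers were higher in each. Of the 9 monocyte markers, 8 were higher in each, and 1 was lower with both oncogenes. Over all tested genes, 42.2% were higher and 9.98% lower with NUP98-NSD1, and 24.2% and 14.1% with both oncogenes. Among the higher markers, Ltf, Camp, Ngp, S100a9, Cd14, Mrc1 and C1qa had under 1 FPKM in every NRASG12D library. They passed the filter only through other groups. Lymphoid markers stayed under 0.133 FPKM and endothelial or stromal markers under 0.817 FPKM in sum, erythroid markers between 0.559 and 14.5, eosinophil markers between 0.0162 and 220.0, basophil markers between 29.2 and 1603, and megakaryocyte markers between 74.4 and 1207 FPKM. In these bulk samples, fewer cells of a type and less RNA per cell cannot be told apart, and the part of cell composition in the results below was not tested.

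Promoters are shown for 4 members that rose from NRASG12D to NUP98-NSD1 cells (Fos, Egr2, Jun and Junb), for Fosb, whose levels lay highest in NUP98-NSD1 cells, and for Fosl2, which did not pass the test there, to show which known elements these genes share. Promoter windows of 7 of the 10 members were taken from the RefSeq table for GRCm38.p6. Each ran from 250 bases before to 50 bases after a start. The table held no window for Egr3 and Fosl1, and that of Egr1 is not reported here. The windows were searched on both strands for the CArG box and for TGACGTCA and TGACATCA of CREB, ATF and JUN proteins. They were also searched for the AP-1 motif TGANTCA, the EGR motif GCGNGGGCG and TATAAA. The motifs found are in capitals, and none of them overlapped another. Sequences run 5′ to 3′ along the gene's own strand.
Fos, chr12:85473640-85473939, plus strand: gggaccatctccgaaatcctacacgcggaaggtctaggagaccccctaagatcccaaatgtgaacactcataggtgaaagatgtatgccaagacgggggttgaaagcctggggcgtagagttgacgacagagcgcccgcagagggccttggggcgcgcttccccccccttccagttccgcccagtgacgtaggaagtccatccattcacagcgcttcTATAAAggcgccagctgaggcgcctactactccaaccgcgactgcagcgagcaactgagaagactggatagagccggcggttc
Egr2, chr10:67537619-67537918, plus strand: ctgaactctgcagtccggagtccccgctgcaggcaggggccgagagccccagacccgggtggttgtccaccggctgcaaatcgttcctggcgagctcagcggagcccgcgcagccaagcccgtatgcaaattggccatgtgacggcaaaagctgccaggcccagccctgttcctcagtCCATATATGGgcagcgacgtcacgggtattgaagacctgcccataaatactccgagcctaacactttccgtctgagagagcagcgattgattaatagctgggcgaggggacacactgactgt
Jun, chr4:95052173-95052472, minus strand: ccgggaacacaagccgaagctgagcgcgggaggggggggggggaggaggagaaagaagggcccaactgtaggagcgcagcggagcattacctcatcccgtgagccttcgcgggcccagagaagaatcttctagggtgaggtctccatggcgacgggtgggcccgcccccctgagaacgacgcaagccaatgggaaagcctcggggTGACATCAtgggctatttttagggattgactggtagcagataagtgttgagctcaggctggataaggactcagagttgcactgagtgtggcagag
Junb, chr8:84978699-84978998, minus strand: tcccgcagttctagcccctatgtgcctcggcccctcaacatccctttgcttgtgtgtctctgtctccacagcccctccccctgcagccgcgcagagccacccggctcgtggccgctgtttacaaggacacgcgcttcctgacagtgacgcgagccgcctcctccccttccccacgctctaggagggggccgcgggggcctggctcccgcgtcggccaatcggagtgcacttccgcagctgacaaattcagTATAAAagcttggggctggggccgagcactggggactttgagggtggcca
Fosb, chr7:19309996-19310295, minus strand: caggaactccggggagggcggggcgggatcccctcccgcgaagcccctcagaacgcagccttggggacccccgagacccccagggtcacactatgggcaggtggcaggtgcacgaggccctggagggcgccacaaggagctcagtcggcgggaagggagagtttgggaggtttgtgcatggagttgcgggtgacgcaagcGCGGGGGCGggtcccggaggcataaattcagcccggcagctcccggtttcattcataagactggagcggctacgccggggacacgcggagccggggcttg
Fosl2, chr5:32136222-32136521, plus strand: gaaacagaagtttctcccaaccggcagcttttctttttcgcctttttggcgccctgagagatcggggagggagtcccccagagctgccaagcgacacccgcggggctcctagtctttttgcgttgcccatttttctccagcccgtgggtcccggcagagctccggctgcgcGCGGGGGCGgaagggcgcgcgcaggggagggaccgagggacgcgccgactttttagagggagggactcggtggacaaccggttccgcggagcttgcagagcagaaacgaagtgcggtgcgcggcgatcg
The Fos window held TATAAA from 33 to 28 bases before the start. The Egr2 window held a CArG box from 72 to 63 bases before the start, and a CArG box also stands in another window of Egr2, which starts at 67537316 on chromosome 10. Among 32851 promoter windows of the table, 1.63% held a CArG box and 13.6% held TATAAA. Jun had TGACATCA from 45 to 38 bases before its start, a motif of 3.62% of the windows. In the Junb window TATAAA lay on the first 6 bases after the listed start. The Junb gene itself, on the minus strand, is placed only up to 84978718 on chromosome 8, so this TATAAA lies before the gene as placed there. Fosb and Fosl2 each had 1 match to GCGNGGGCG, which 5.55% of the windows held. TGACGTCA and TGANTCA, found in 1.79% and 7.81% of all windows, were not among the letters of any window of these 7 members. The Jund window held none of the 6 motifs, but it ends at 70697788 on chromosome 8. The Jund gene itself is placed from 70698949, so the window does not reach it. Within these windows, no motif searched was shared by all 4 printed members that rose. Elements more than 250 bases before a start were not searched, so a motif missing here may stand farther away.

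All 3 groups differed in these genes (plot of FPKM by library). NUP98-NSD1 cells had the highest mean level of 7 members, Egr1, Egr2, Egr3, Fos, Fosb, Jun and Junb. NUP98-NSD1+NRASG12D cells had the lowest mean of 6 members, Egr1, Egr3, Fosl2, Jun, Junb and Jund, whereas Fos lay between the other groups. On the FPKM scale, which is per length, Junb was the most abundant member in all 3 groups, followed by Egr1 in NRASG12D and NUP98-NSD1 cells but by Jun in NUP98-NSD1+NRASG12D cells. Fosb was the least abundant member in every group.

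**Figure D1:**
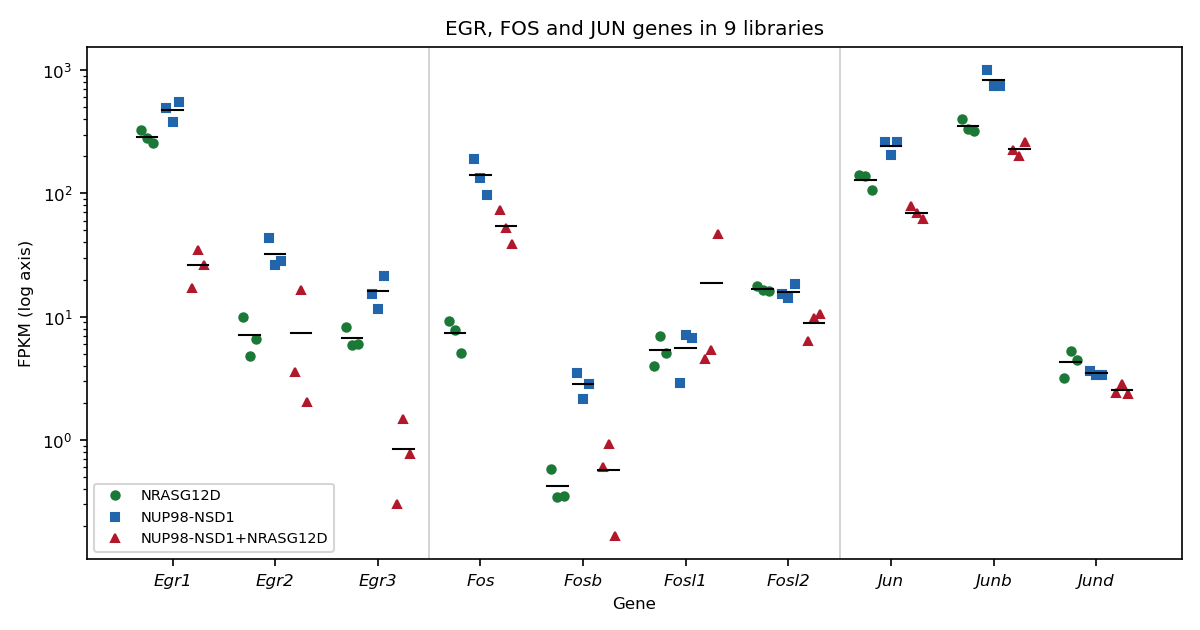
FPKM of the 10 genes in each of the 9 libraries on a log axis. Points are libraries and bars are group means of 3 libraries. Egr1 lay at 17.0 to 34.5 FPKM in NUP98-NSD1+NRASG12D cells and above 257 FPKM in all other libraries, whereas Fos lay under 9.15 FPKM in NRASG12D libraries and above 39.0 FPKM in all others.

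Compared to NRASG12D cells, 6 of 9 members were higher in NUP98-NSD1 cells and 0 were lower by limma (adjusted p under 0.05). Fosb was left out of this count because it had passed the filter only through its NUP98-NSD1 libraries, where it was high. Among all 13493 tested genes, 42.2% were higher and 9.98% were lower. The median log2FC was 0.91 over these 9 members and 0.27 over all tested genes, and the latter was 0.012 after median-ratio scaling. With that scaling higher genes made up 52.3% of the called genes, compared to 80.9% as deposited and 43.2% after quantile normalization. The 6 members were all 3 EGR genes, Fos, Jun and Junb. After median-ratio scaling Egr1 lost its call (limma adjusted p = 0.0982) and Jund was called lower (adjusted p = 0.0459). With that scaling, 23.9% of all tested genes were higher and 21.9% lower. Quantile normalization left Fosl2 and Jund called lower (limma adjusted p = 0.0475 and 0.0190). In NUP98-NSD1+NRASG12D compared to NRASG12D cells, 1 member was higher and 5 were lower, whereas 24.2% of all tested genes were higher and 14.1% were lower. The median log2FC over the members was -0.59 and that of all tested genes was 0.23. The single higher member was Fos, and the lower ones were Egr1, Egr3, Fosl2, Jun and Junb. In this comparison, 63.1% of all called genes were higher as deposited, 53.1% after median-ratio scaling and 41.3% after quantile normalization. Both comparisons use the same NRASG12D libraries, and the libraries set against them are those on which Egr1 was selected, so the p-values of Egr1 are not independent of its choice. The counts and medians of members given here include Egr1 and share this limit.

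**Figure D2:**
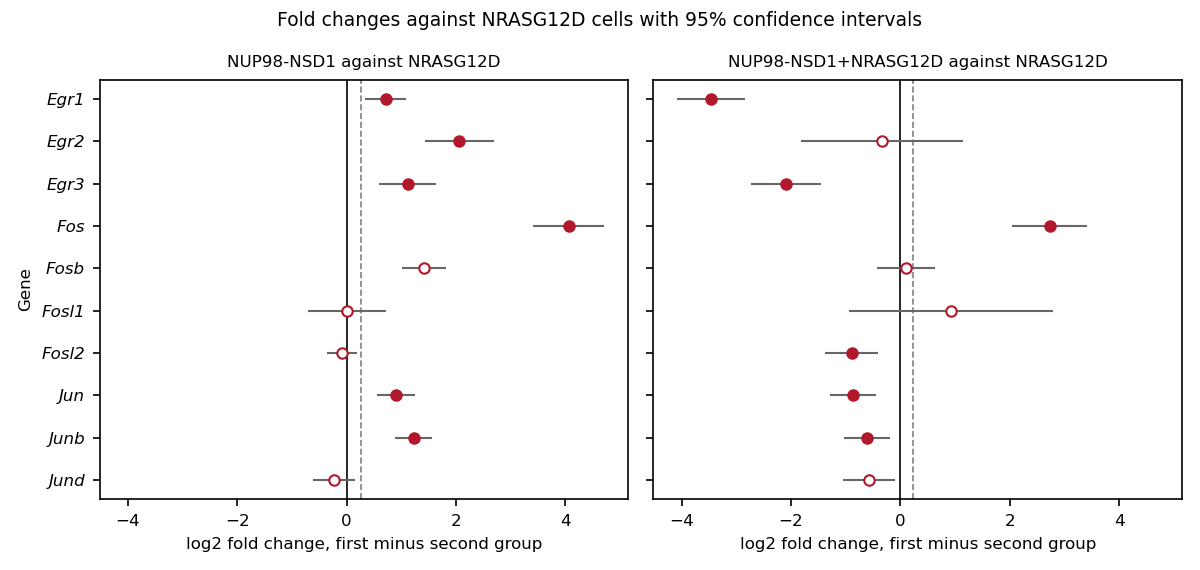
The log2FC values of FPKM + 1 against NRASG12D cells for NUP98-NSD1 cells (left) and NUP98-NSD1+NRASG12D cells (right), with 95% confidence intervals from limma over 6 libraries. Filled points had an adjusted p under 0.05, Fosb is drawn open on the left because no test is given for it there, and the dashed line is the median of all tested genes at 0.27 and 0.23. Fos lay at 4.06 and 2.73, and Egr1 at 0.72 and -3.46. Egr1 was selected on libraries plotted here, so its filled points are not independent of that choice.

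Egr1 (ENSMUSG00000038418.7) encodes the founding member of the EGR family and is placed at 34859823 to 34864984 of chromosome 18 (GRCm38, plus strand). Its FPKM were 324, 279 and 257 in the NRASG12D libraries, 496, 379 and 552 in the NUP98-NSD1 libraries and 17.0, 34.5 and 26.4 in the NUP98-NSD1+NRASG12D libraries. No library of a group overlapped another group, and the order was NUP98-NSD1, NRASG12D and then NUP98-NSD1+NRASG12D cells. The level in NUP98-NSD1 cells (476 ± 88.4 FPKM, SD, n = 3) was 1.66 times that in NRASG12D cells (287 ± 34.0 FPKM, SD, n = 3), with a log2FC of 0.72 (SE 0.16, adjusted p = 0.00879). This rise was 0.44 above the median of all genes and lost its call after median-ratio scaling (log2FC 0.41, adjusted p = 0.0982) and with all 9 libraries in a single fit (adjusted p = 0.0649). With both oncogenes Egr1 was 11.0-fold lower than with NRASG12D alone, with a log2FC of -3.46 (SE 0.26). No test is read from this fall, because Egr1 was selected for its low values in the same NUP98-NSD1+NRASG12D libraries. Its log2FC lay between -3.69 and -3.20 in the fits that left out a library. NUP98-NSD1+NRASG12D replicate 2, with the highest Egr1 level of its group, also had the highest mast cell marker sum of its group, 4713 FPKM. Replicates 1 and 3 went the other way, with 17.0 and 26.4 FPKM of Egr1 and sums of 1025 and 784 FPKM. In NUP98-NSD1 libraries replicate 3 was highest in both, whereas NRASG12D replicate 1 had the highest Egr1 level and the lowest sum of its group. The part of cell composition in the Egr1 levels was not tested.

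Egr3 (ENSMUSG00000033730.4, chromosome 14 from 70077203 to 70082614), which acts downstream of antigen and growth factor receptors, followed the same order at a lower level. Its FPKM were 8.22, 5.92 and 5.96 in NRASG12D, 15.3, 11.5 and 21.2 in NUP98-NSD1 and 0.300, 1.48 and 0.770 in NUP98-NSD1+NRASG12D libraries. The 3 groups did not overlap. The lowest value rests on an estimated 33.5 fragments, and 3 fragments would give 0.0269 FPKM in that library. Egr3 was 2.39 times as high in NUP98-NSD1 as in NRASG12D cells, with a log2FC of 1.12 (SE 0.22, adjusted p = 0.00628). It was 7.88-fold lower in NUP98-NSD1+NRASG12D than in NRASG12D cells, with a log2FC of -2.09 (SE 0.27, adjusted p = 0.00142). Both differences were called in 13 of 13 alternative fits.

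Egr2 (ENSMUSG00000037868.15, chromosome 10 from 67535475 to 67542188), known for its role in myelination and in macrophages and lymphocytes, had 9.91, 4.81 and 6.65 FPKM in NRASG12D, 43.1, 26.2 and 28.3 in NUP98-NSD1 and 3.57, 16.3 and 2.02 in NUP98-NSD1+NRASG12D libraries. The NUP98-NSD1 libraries lay above all others, and the remaining groups overlapped because of NUP98-NSD1+NRASG12D replicate 2. The rise from NRASG12D to NUP98-NSD1 cells was 4.57-fold, with a log2FC of 2.06 (SE 0.27, adjusted p = 0.00159). Between NUP98-NSD1+NRASG12D and NRASG12D cells the log2FC was -0.34 with a 95% confidence interval from -1.82 to 1.14 (adjusted p = 0.689). Without NUP98-NSD1+NRASG12D replicate 2 it was -1.08 with an adjusted p of 0.0418, and without replicate 3 it was 0.18 with an adjusted p of 0.827.

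Fos (ENSMUSG00000021250.13), the prototype of the FOS family, lies on chromosome 12 from 85473890 to 85477273, and its promoter is printed above. It had 9.14, 7.85 and 5.03 FPKM in NRASG12D, 189.6, 133 and 97.8 in NUP98-NSD1 and 73.4, 52.0 and 39.1 in NUP98-NSD1+NRASG12D libraries. The groups did not overlap, and NRASG12D cells were the lowest. Fos was 19.1 times as high in NUP98-NSD1 cells (140.2 ± 46.3 FPKM, SD, n = 3) as in NRASG12D cells (7.34 ± 2.10 FPKM, SD, n = 3), with a log2FC of 4.06 (SE 0.27, adjusted p = 0.000176). It was 7.47 times as high in NUP98-NSD1+NRASG12D cells (54.8 ± 17.3 FPKM, SD, n = 3), with a log2FC of 2.73 (SE 0.29, adjusted p = 0.000623). Both rises were called in 13 of 13 alternative fits. The neutrophil marker sums differed between the same groups, with 29.7 to 36.9 FPKM for NRASG12D, 1728 to 6126 for NUP98-NSD1 and 8894 to 19862 for both oncogenes, and their part in the Fos levels was not tested.

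Fosb (ENSMUSG00000003545.3, chromosome 7 from 19302696 to 19310051), a close relative of Fos, was at 0.578, 0.346 and 0.351 FPKM in NRASG12D, 3.52, 2.13 and 2.83 in NUP98-NSD1 and 0.599, 0.935 and 0.167 in NUP98-NSD1+NRASG12D libraries. The NUP98-NSD1 libraries were the highest, and the other groups overlapped. Its lowest value came from an estimated 14.4 fragments, with 3 fragments giving 0.0347 FPKM. The difference between NUP98-NSD1 and NRASG12D cells, given without a test because the NUP98-NSD1 libraries alone took Fosb past the filter, had a log2FC of 1.41 (SE 0.17), which the added 1 FPKM makes smaller than the 6.65-fold ratio of the means. Against NRASG12D cells, NUP98-NSD1+NRASG12D cells had a log2FC of 0.11 with a 95% confidence interval from -0.42 to 0.64 (adjusted p = 0.718), and its sign turned after quantile normalization and with array weights.

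The FOS-related antigens Fosl1 and Fosl2 lack the activation domain of Fos. Fosl2 (ENSMUSG00000029135.10, chromosome 5 from 32135801 to 32157842) had 17.8, 16.5 and 16.3 FPKM in NRASG12D, 15.3, 14.1 and 18.4 in NUP98-NSD1 and 6.31, 9.69 and 10.5 in NUP98-NSD1+NRASG12D libraries. NRASG12D and NUP98-NSD1 cells overlapped (log2FC -0.08, 95% confidence interval -0.35 to 0.18, adjusted p = 0.559), and the NUP98-NSD1+NRASG12D libraries lay below both. The fall from NRASG12D to NUP98-NSD1+NRASG12D cells had a log2FC of -0.89 (SE 0.20, adjusted p = 0.0147). It lost its call when any NRASG12D library was left out, with adjusted p-values of 0.0643, 0.0553 and 0.0558 without replicates 1, 2 and 3.

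Fosl1 (ENSMUSG00000024912.6, chromosome 19 from 5447547 to 5455946) had 4.00, 6.90 and 5.06 FPKM in NRASG12D, 2.92, 7.04 and 6.73 in NUP98-NSD1 and 4.50, 5.32 and 46.7 in NUP98-NSD1+NRASG12D libraries. Only replicate 3 of NUP98-NSD1+NRASG12D, the library with the highest Nras level, stood above the range of the others. The log2FC of NUP98-NSD1+NRASG12D against NRASG12D cells was 0.93 (95% confidence interval -0.94 to 2.80, adjusted p = 0.374), and it was -0.076 without this replicate. With limma's array weights, which weight down libraries that vary more, it was 2.06 (adjusted p = 0.0315). Of the 50-base stretches of Fosl1 transcripts, 52.6% also occur in Ccdc85b, a gene on the opposite strand, so reads of both may have been mixed if strand was not used. Ccdc85b had 5.85, 3.24 and 6.94 FPKM in the same 3 libraries.

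Junb (ENSMUSG00000052837.6, chromosome 8 from 84974484 to 84978718) encodes the JUN protein that is known to restrain myeloid growth. It had 399, 334 and 322 FPKM in NRASG12D, 996, 748 and 744 in NUP98-NSD1 and 225, 202 and 262 in NUP98-NSD1+NRASG12D libraries, with no overlap between groups. Junb is listed on 2 lines of each table that were summed, of which the line from 84974484 to 84976542 held at most 1.76 FPKM. The rise from NRASG12D (352 ± 41.2 FPKM, SD, n = 3) to NUP98-NSD1 cells (829 ± 144 FPKM, SD, n = 3) was 2.36-fold, with a log2FC of 1.23 (SE 0.15, adjusted p = 0.00123). NUP98-NSD1+NRASG12D cells (229.8 ± 30.5 FPKM, SD, n = 3) were 1.53-fold lower than NRASG12D cells, with a log2FC of -0.61 (SE 0.18, adjusted p = 0.0335). The fall lost its call without NRASG12D replicate 1, 2 or 3 (adjusted p = 0.146, 0.0994 and 0.0890) and without the filter on low values (adjusted p = 0.0807). With a replicate block it was lost as well (adjusted p = 0.0873), and it was called in 8 of 13 alternative fits. Of the Junb stretches, 5.76% occur in Prdx2, whose group means were 78.3, 129 and 129.6 FPKM in the order NRASG12D, NUP98-NSD1 and NUP98-NSD1+NRASG12D.

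Jun (ENSMUSG00000052684.4, chromosome 4 from 95049034 to 95052222), the main partner of FOS proteins and a target of JNK, had the same order of groups as Junb. It had 142, 139 and 106 FPKM in NRASG12D, 261, 206 and 260.1 in NUP98-NSD1 and 79.1, 68.7 and 61.8 in NUP98-NSD1+NRASG12D libraries. The groups did not overlap. The rise from NRASG12D to NUP98-NSD1 cells was 1.88-fold, with a log2FC of 0.91 (SE 0.15, adjusted p = 0.00313). In NUP98-NSD1+NRASG12D cells Jun was 1.84-fold lower than in NRASG12D cells, with a log2FC of -0.87 (SE 0.18, adjusted p = 0.00969), and the call was lost without NRASG12D replicate 1 (adjusted p = 0.0526). The antisense gene Junos holds 5.83% of its stretches and had between 0.181 and 7.76 FPKM.

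Jund (ENSMUSG00000071076.6, chromosome 8 from 70698949 to 70700616), which in many cells is expressed without stimulation, was low. It had 3.20, 5.26 and 4.45 FPKM in NRASG12D, 3.64, 3.37 and 3.39 in NUP98-NSD1 and 2.41, 2.83 and 2.35 in NUP98-NSD1+NRASG12D libraries. NRASG12D and NUP98-NSD1 cells overlapped, and NUP98-NSD1+NRASG12D cells lay below both. Its log2FC against NRASG12D cells was -0.23 in NUP98-NSD1 (adjusted p = 0.263) and -0.57 in NUP98-NSD1+NRASG12D cells (95% confidence interval -1.04 to -0.10, adjusted p = 0.0587). After median-ratio scaling both were called lower, with adjusted p-values of 0.0459 and 0.0297. Of its stretches, 48.3% occur in Gm11175 on the opposite strand, so reads of both may have been mixed if strand was not used. Gm11175 had at most 0.885 FPKM, a value open to the same mixing.

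With NRASG12D added to NUP98-NSD1, relative to NUP98-NSD1 alone, the comparison on which Egr1 was selected, 9 of 10 members lay lower in every NUP98-NSD1+NRASG12D library than in any NUP98-NSD1 library and 0 lay higher. Among all tested genes, 19.8% did so in the lower and 11.6% in the higher direction. Nothing is read from this count, since the comparison chose the set. The ratio of the means was 18.3-fold for Egr1, 18.8-fold for Egr3 and 4.45-fold for Egr2. Fosb was 4.99-fold, Junb 3.61-fold, Jun 3.47-fold, Fos 2.56-fold, Fosl2 1.81-fold and Jund 1.37-fold lower. The exception was Fosl1, whose mean was 3.39 times as high in NUP98-NSD1+NRASG12D cells through replicate 3. The 9 members that were lower had log2FC values from -4.18 for Egr1 to -0.34 for Jund, against a median of -0.06 over all tested genes.

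Fos and Egr1 stood in different proportions in the 3 groups. Fos FPKM per Egr1 FPKM was 0.0282, 0.0281 and 0.0195 in the NRASG12D libraries, 0.382, 0.352 and 0.177 in the NUP98-NSD1 libraries and 4.31, 1.51 and 1.48 in the NUP98-NSD1+NRASG12D libraries. This ratio does not depend on the scaling between libraries. It was chosen after the values of both genes were seen, so no test is given. NRASG12D cells had much Egr1 and little Fos, NUP98-NSD1 cells had much of both, and NUP98-NSD1+NRASG12D cells had more Fos than Egr1 in every library.

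**Figure D3:**
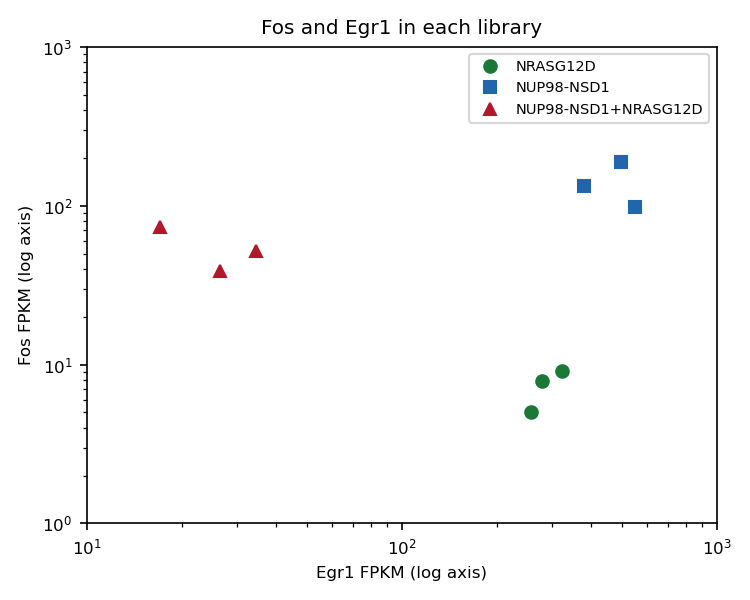
Fos FPKM against Egr1 FPKM in each of the 9 libraries, both on log axes, with a symbol per group. The NUP98-NSD1+NRASG12D libraries lie at 17.0 to 34.5 FPKM of Egr1 and 39.1 to 73.4 FPKM of Fos, and the NRASG12D libraries at 257 to 324 and 5.03 to 9.14 FPKM.

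The composition of each family was compared as the share of a member in the family's summed FPKM, a measure that does not depend on scaling between libraries. In NRASG12D cells Fosl2 held 56.5 ± 4.33% (SD, n = 3) and Fos 24.2 ± 5.11% of a sum that lay between 26.7 and 31.6 FPKM. In NUP98-NSD1 cells Fos held 84.2 ± 6.03% and Fosl2 10.3 ± 3.86% of 165 ± 43.4 FPKM (SD, n = 3). In NUP98-NSD1+NRASG12D libraries the share of Fos was 86.6%, 76.5% and 40.5% and that of Fosl2 7.44%, 14.3% and 10.9%, while Fosl1 held 48.5% in replicate 3. The mean share of Fosl1 in this group was 20.5% with and 6.57% without that library. Each NUP98-NSD1 and each NUP98-NSD1+NRASG12D library had a larger share of Fos and a smaller share of Fosl2 than any NRASG12D library.

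The JUN family differed less in its proportions than in its sum. Junb held 72.6 ± 2.38%, 77.0 ± 2.76% and 75.9 ± 3.89% (SD, n = 3) of 485, 1075 and 302 FPKM in the order NRASG12D alone, NUP98-NSD1 alone and both. Its share differed by 4.43 percentage points between NUP98-NSD1 and NRASG12D cells (two-sided exact permutation test, p = 0.2, adjusted p = 0.333) and by 3.29 points between NUP98-NSD1+NRASG12D and NRASG12D cells (exact permutation test, p = 0.4, adjusted p = 0.5), with overlapping groups. In the EGR family, Egr1 held 95.4 ± 0.805%, 90.7 ± 1.17% and 79.3 ± 12.4% (SD, n = 3) of the summed FPKM. The wide spread in NUP98-NSD1+NRASG12D cells came with Egr2, whose share was 17.1%, 31.2% and 6.92%, with a mean of 18.4% that was 12.0% without replicate 2. Over 30 shares and comparisons, exact permutation tests of 3 libraries against 3 cannot give a p under 0.1, and the smallest adjusted p was 0.25, so no share passed the threshold.

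**Figure D4:**
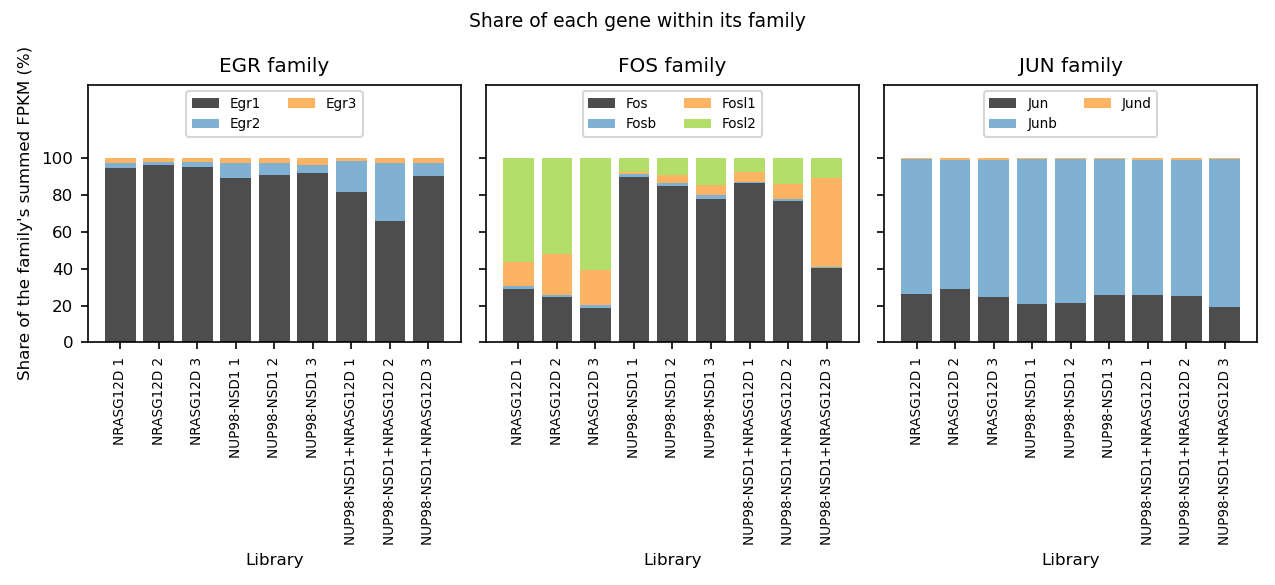
Share of each gene in the summed FPKM of the EGR, FOS and JUN family, in percent, as a stacked bar per library. Fos holds 24.2% of the FOS family on average in the NRASG12D and 84.2% in the NUP98-NSD1 libraries, whereas Junb holds 69.9% to 80.4% of the JUN family in every library.

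The genes most like Egr1, Fos and Junb were ranked by Pearson correlation of log2(FPKM + 1) over the 9 libraries among 10923 tested genes with a settled symbol. The libraries form 3 groups, so this is mainly a likeness of group levels and is given as a description. Most like Egr1 were Usp17ld (r = 0.991), Dstyk (0.989), Pdlim5 (0.987), Crlf2 (0.987) and Cma2 (0.987). Crlf2, a subunit of the receptor for thymic stromal lymphopoietin, had 108 ± 4.33, 132 ± 4.60 and 40.1 ± 11.4 FPKM (SD, n = 3) in the order NRASG12D alone, NUP98-NSD1 alone and both. Cma2, a chymase gene of the mast cell protease cluster, had 7.56 ± 0.314, 9.28 ± 1.08 and 0.333 ± 0.395 FPKM (SD, n = 3). It had under 1 FPKM in every library with both oncogenes and passed the filter only through other groups. Most like Fos were Bahcc1 (r = 0.989), Zfp36 (0.979) and Ccdc116 (0.976). Bahcc1 and Ccdc116 had under 1 FPKM in every NRASG12D library and passed the filter only through other groups. Zfp36, an immediate early gene for an RNA-binding protein that speeds the decay of cytokine messages, had 7.60, 10.3 and 6.47 FPKM in NRASG12D, 137.6, 90.5 and 75.3 in NUP98-NSD1 and 67.6, 78.7 and 46.2 in NUP98-NSD1+NRASG12D libraries. Most like Junb were Zfp324 (r = 0.975), and the immediate early genes Ier2 (0.964) and Nr4a1 (0.961).

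Among 42 other immediate early genes, 36 passed the filter on low values. In cells with NUP98-NSD1 compared to those with NRASG12D, 18 of 36 were higher and 2 were lower, where 42.2% and 9.98% of all tested genes were. The median log2FC was 0.50 against 0.27 over all tested genes. Of the 18 higher genes, 7 had under 1 FPKM in every NRASG12D library and passed the filter only through other groups. The largest rises were those of Btg2, an antiproliferative gene (2.99 ± 0.894 to 44.6 ± 14.3 FPKM, SD, n = 3), Zfp36 (8.14 ± 1.99 to 101 ± 32.5 FPKM) and Dusp1, a phosphatase that inactivates MAP kinases (5.48 ± 1.16 to 40.8 ± 8.75 FPKM). Their log2FC values were 3.49, 3.46 and 2.68. The lower genes were Klf10, induced by TGF-beta, and Btg1, with log2FC values of -0.48 and -0.40. After median-ratio scaling 15 of the 36 genes were higher and 5 lower, where 23.9% and 21.9% of all tested genes were. Egr4, the EGR gene outside the member list, had 0.13 to 0.32 FPKM in NRASG12D libraries, 1.19 to 1.99 in those with NUP98-NSD1 alone and at most 0.04 in NUP98-NSD1+NRASG12D libraries.

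In NUP98-NSD1+NRASG12D compared to NRASG12D cells, 13 of 36 other immediate early genes were higher and 8 were lower. Of all tested genes, 24.2% were higher and 14.1% lower. The median log2FC was -0.12 against 0.23 over all tested genes. After median-ratio scaling 11 of the 36 were higher and 11 lower, where 20.6% and 18.2% of all tested genes were. Of the 13 higher genes, 5 had under 1 FPKM in every NRASG12D library and passed the filter only through other groups. Among these was Atf3, a stress-induced partner of JUN proteins, with 0.413 ± 0.233 FPKM with NRASG12D alone, 41.6 ± 15.7 FPKM with both oncogenes (SD, n = 3) and a log2FC of 4.86. Nfkbia, the inhibitor of NF-kappaB, and Sgk1, a kinase, were also higher, with log2FC values of 3.72 and 3.48. The lower genes were led by Rgs1, which dampens G protein signals (175 ± 17.8 to 26.2 ± 17.0 FPKM, SD, n = 3), Cd69, an early activation marker (298 ± 40.3 to 58.2 ± 16.4 FPKM), and Ier3 (407 to 429 FPKM in NRASG12D and 56.4 to 109 FPKM in NUP98-NSD1+NRASG12D libraries), with log2FC values of -2.87, -2.37 and -2.29. Dusp1, Zfp36 and Btg2 were higher than in NRASG12D cells in both comparisons, as was Fos. Ier2 was higher in NUP98-NSD1 and lower in NUP98-NSD1+NRASG12D than in NRASG12D cells, as were Egr1, Egr3, Jun and Junb.

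Relative to NUP98-NSD1 alone, in cells with both oncogenes, 2 of 36 were higher and 9 were lower, where 2.3% and 6.31% of all tested genes were called, with a median log2FC of -0.41 against -0.06 over all tested genes. Of the 9 lower genes, 2 had under 1 FPKM in every library with both oncogenes and passed the filter only through other groups. The higher genes were Atf3 and Trib1, a pseudokinase that promotes the degradation of C/EBP-alpha, with log2FC values of 2.34 and 1.27. The largest falls were those of Rgs1, Ier2 and Cd69, with log2FC values of -3.02, -2.86 and -2.67. Ier2 had 1134 ± 150 FPKM with NUP98-NSD1 alone, whereas both oncogenes together gave 159 ± 46.5 FPKM (SD, n = 3). Lower levels were not shared by all immediate early genes tested.

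**Figure D5:**
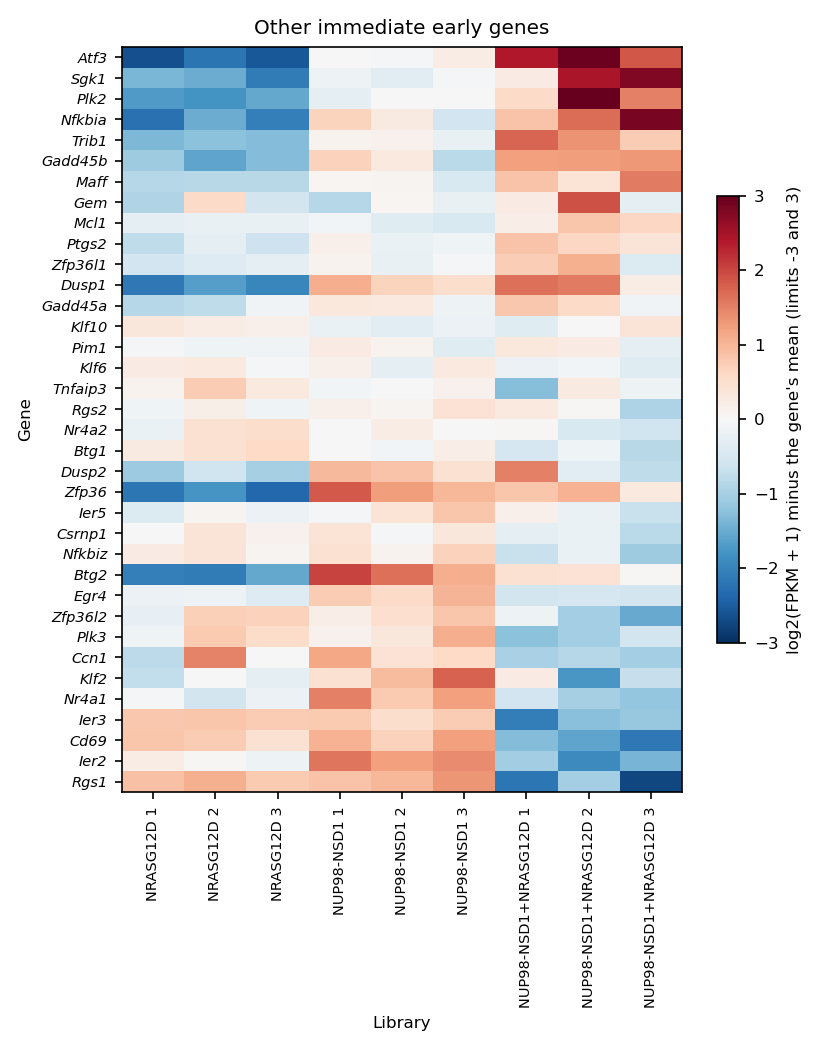
Levels of the 36 other immediate early genes that passed the filter in the 9 libraries, as log2(FPKM + 1) minus the mean of the gene, in colour limited to -3 and 3. Genes are ordered by the difference of NUP98-NSD1+NRASG12D and NUP98-NSD1 cells, from Atf3 at the top to Rgs1 at the bottom.

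Among 13 AP-1 partners and BATF, ATF and MAF factors, 9 passed the filter. Against NRASG12D cells, 4 were higher and 1 was lower in NUP98-NSD1 cells, and 4 were higher and 2 were lower in NUP98-NSD1+NRASG12D cells, with median log2FC values of 0.36 and 1.20. Over all tested genes, 42.2% were higher and 9.98% lower in the former and 24.2% and 14.1% in the latter comparison, with medians of 0.27 and 0.23. Of the 4 higher genes, 2 in each comparison had under 1 FPKM in every NRASG12D library and passed the filter only through other groups. One of these was Batf3, listed at 0, 0.0844 and 0 FPKM with NRASG12D, at 2.12, 2.42 and 0.733 with NUP98-NSD1 and at 2.19, 2.32 and 1.52 with both. Bach1 was higher in both groups, with log2FC values of 0.55 with NUP98-NSD1 and 1.30 with both oncogenes. The rise of Bach1 with NUP98-NSD1 lost its call after median-ratio scaling, where 2 of the 9 genes were higher and 3 lower. With that scaling, 23.9% of all tested genes were higher and 21.9% lower in the same comparison. Mafk was lower in both (log2FC values -0.65 and -1.13), and Batf, a partner of JUN proteins, was lower in NUP98-NSD1+NRASG12D cells (log2FC -0.59). Comparing cells with both oncogenes to those with NUP98-NSD1 alone, 0 of 9 passed by limma and 4 had an unadjusted p under 0.05. Of all tested genes, 2.3% were higher and 6.31% lower by limma. The median log2FC was 0.18 against -0.06 over all tested genes.

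All 14 upstream regulators and EGR corepressors passed the filter. In cells with NUP98-NSD1 compared to those with NRASG12D, 2 were higher and 6 were lower, where 42.2% and 9.98% of all tested genes were, with a median log2FC of -0.19 against 0.27 over all tested genes. Creb1 and Mapk8, which encodes JNK1, were the higher genes (log2FC values 0.52 and 0.95). Creb1 lost its call in both comparisons with NRASG12D cells after median-ratio scaling, and Mapk8 lost its call with NUP98-NSD1 after quantile normalization. The corepressor gene Nab2 fell from 9.03 ± 0.720 to 4.83 ± 0.867 FPKM (SD, n = 3), with a log2FC of -0.79. With both oncogenes its log2FC against NRASG12D cells was -0.80 (limma adjusted p = 0.237), from libraries at 1.75, 4.48 and 11.6 FPKM. Fhl2, a cofactor of AP-1 and serum response factor, and Crem, a CREB relative, fell with log2FC values of -1.03 and -1.01. In NUP98-NSD1+NRASG12D compared to NRASG12D cells, 3 were higher and 3 were lower, where 24.2% and 14.1% of all tested genes were, with a median of -0.14 against 0.23. Mapk8, Elk3 and Creb1 were higher (log2FC values 1.32, 1.25 and 0.59), and Fhl2, Crem and Elk4 were lower (-3.32, -1.48 and -1.11). For both oncogenes against NUP98-NSD1 alone, Elk3 was the 1 higher gene (log2FC 0.88) and Fhl2 the 1 lower gene (-2.29), with a median of 0.09 against -0.06. Of all tested genes, 2.3% were higher and 6.31% lower there. Fhl2 had under 1 FPKM in every library with both oncogenes and passed the filter only through other groups. Fhl2 had 12.4 ± 2.77, 5.69 ± 2.30 and 0.342 ± 0.263 FPKM (SD, n = 3) in the order NRASG12D alone, NUP98-NSD1 alone and both. Srf, which encodes serum response factor itself, had 1.46 to 3.14 FPKM over all libraries.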

How the data were processed

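RNA of 9 cultures was sequenced in paired-end reads of 50 bp. Per the labels, the authors used STAR 2.7.2a and Cufflinks 2.2.1 on GRCm38.p6. The deposited values are FPKM per gene, with no further scaling stated. Strand handling is not given in the sources used here. Lines of the same identifier were summed. Of 55274 identifiers, 54882 were matched in GENCODE M21, which served for lengths and overlaps.

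Depth was estimated from the steps between low FPKM values of 3386 long genes with 1 transcript, of which 85.9% to 88.7% fell on whole steps. The level of 3 fragments is the floor, and it covers counting error only.

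Groups of 3 libraries were compared pairwise on log2(FPKM + 1) with limma 3.58.1 in R 4.3.3 (eBayes with trend), after a filter of at least 1 FPKM in at least 3 libraries. P-values were adjusted by Benjamini-Hochberg over 13493 genes, with a threshold of 0.05. Fold changes on this scale understate changes of low genes. For shares, exact permutation tests (two-sided) were used. Alternatives were other pseudocounts, filters, scalings and models, a replicate block and fits without each library. Scalings of the list counts were added after seeing the data. The members and all gene lists were chosen with earlier results of these data known. All members were named, as were from each list and comparison up to 3 rises and 3 falls past the threshold without overlap, and the genes most like Egr1, Fos and Junb. The result of 1 listed gene is not reported here. Python 3.11.15, numpy 2.4.6, pandas 2.3.3, scipy 1.17.1 and matplotlib 3.10.9 were used. Fragment counts, named in the methods as input to DESeq2, were not used here.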

Additional observations from a re-analysis of the deposited data

How the results depend on the processing

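Over 13 alternatives of each comparison, 118 and 111 of 130 member fold changes, Fosb included, kept their direction and their side of the threshold against NRASG12D cells, for NUP98-NSD1 alone and for both oncogenes. Calls were lost in 2 and 9 and gained in 3 and 5 of them. Signs turned in 7 and 5, all for members that had not passed. For Fosl1 in NUP98-NSD1 against NRASG12D cells the log2 fold change was -0.0030 with a pseudocount of 0.1, -0.25 with median-ratio scaling and -0.33 after quantile normalization, and it ran from -0.17 to 0.34 without each library. Without each library, Fosl1 ran from -0.076 to 1.48 and Egr2 from -1.08 to 0.18 in NUP98-NSD1+NRASG12D against NRASG12D cells, and Fosl1 from -0.084 to 1.48 against NUP98-NSD1 cells. Fosb against NRASG12D cells was -0.15 after quantile normalization, -0.11 with array weights and -0.057 to 0.31 without each library.

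The number of members called in NUP98-NSD1+NRASG12D against NRASG12D cells ran from 3 to 7 without each library and was 3 without NRASG12D replicate 1, while 7 were called without NUP98-NSD1+NRASG12D replicate 2. Counts over all genes moved more. With all 9 libraries in a single fit, 3065 genes were called in NUP98-NSD1 against NRASG12D cells and 2251 in NUP98-NSD1+NRASG12D against NUP98-NSD1 cells. The latter count was 152 without the filter, 3500 with array weights and 283 to 2509 without each library. For both oncogenes against NRASG12D alone the count was 2941 to 6327 without each library. The causes were not tested. Quantile normalization moved the shares of Egr1, Fos, Fosl1, Fosl2 and Junb by less than 1 SD. With a replicate block, 7 and 5 members, Fosb included, were called against NRASG12D cells, and 7 and 6 without. Same-numbered libraries correlated between -0.18 and 0.16 after removal of group means, so the numbers were not taken as pairs.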
